A study of Homo sapiens with 6 samples.

Results

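The 48 genes described here encode the enzymes and enzyme subunits that build an N-glycan, attach it to proteins and remodel it in the Golgi. They were taken by gene name from a count table of 58735 genes. All 48 were found, and all 48 were among the 15530 genes that passed the low-count filter and were tested. The list was selected on earlier results of this same comparison, and GANAB, B4GALT1 and MGAT2 are named in the rule that defines it. The values below are therefore a description of these genes, and the list as a whole was not tested.

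N-glycans are sugar trees joined to asparagine residues of secreted and membrane proteins. A single oligosaccharide is first assembled on the lipid dolichol at the endoplasmic reticulum (ER) membrane and is moved to the protein by the oligosaccharyltransferase complex. Glucosidases and a refolding sensor then use its glucose residues as a tag for folding, mannosidases cut it back, and Golgi transferases add branches, fucose, galactose and sialic acid. In bile duct epithelium and its tumours, branched and sialylated N-glycans sit on adhesion molecules and growth factor receptors.

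RNA was sequenced from HuCCT1, an established human cholangiocarcinoma (bile duct cancer) cell line. Both groups were this 1 line: 3 libraries labelled siC1QBP were from cells that received a small interfering RNA (siRNA) directed at C1QBP, a mainly mitochondrial matrix protein, and 3 labelled siNC from cells given the control siRNA. The sources used here give neither the siRNA sequences nor the time after transfection. Whether the 3 replicates of a group were separate cultures is not stated in the labels, so every p-value rests on the spread between these libraries, and that spread may be technical. In such bulk RNA, fewer cells of a kind and less RNA per cell cannot be told apart.

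Total counts ran from 17122252 to 20416243 per library. Here 3 counts, the most that a count of 0 allows, equal 0.147 to 0.175 CPM (the count rate on the TMM-scaled library size), a limit that covers counting error only. C1QBP stood between 175 and 185 CPM in siNC and between 57.6 and 60.0 CPM in siC1QBP, with 32.7% of the siNC level remaining (log2 fold change -1.61, SE 0.05). All 8 biliary epithelial markers were above 10 CPM in the group means, whereas the 5 hepatocyte markers together reached at most 0.248 CPM in a library. Of the 8 biliary markers KRT7 and KRT19 were called lower (log2 fold changes -0.26 and -0.19, edgeR adjusted p = 0.00021 and 0.0086), and the other 6 were not called. Of the 5 fibroblast markers, COL1A1 rose from 28.4 ± 2.11 to 38.3 ± 2.29 CPM (SD, n = 3 each, edgeR adjusted p = 0.0012), and COL1A2 and DCN were below 1 CPM. LUM (7.56 CPM in siNC, 9.73 CPM in siC1QBP) and PDGFRB (1.13 and 1.07 CPM) were not called. Of the immune markers only CD14 was tested (6.39 CPM in siNC), and of the endothelial ones PECAM1 (1.97 CPM) and VWF (1.12 CPM). None of these was called. The siC1QBP libraries had more genes with at least 1 count (25187 ± 278 against 23614 ± 223; exact permutation test, two-sided, p = 0.1, the lowest value possible with 3 libraries a group). They also had a larger share of counts from the mitochondrial genome (4.43% ± 0.325 against 3.75% ± 0.119; exact permutation test, two-sided, p = 0.1). Replicate 1 stood apart from the other two libraries in both groups: the chi-square per degree of freedom between libraries of 1 group was 3.40 to 6.77 for pairs with a replicate 1 and 2.09 to 2.13 for the other pairs. The part of these differences in the values below was not tested, except that the log2 fold changes, the calls and the median of the 48 genes were recomputed without each library and without both replicates 1.

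Of the 48 genes, 4 were called higher in siC1QBP, 4 were called lower and 40 were not called, where a call is an adjusted p under 0.05 in edgeR's quasi-likelihood test over all tested genes. Among all 15530 tested genes 6.47% were called higher and 7.84% lower. The genes called higher were GANAB and PRKCSH, the subunits of ER glucosidase II, the galactosyltransferase B4GALT1 and the sialyltransferase ST6GAL1. The genes called lower were MGAT1 and MGAT2, which start the antennae of complex N-glycans, the oligosaccharyltransferase subunit DAD1, and the ER glucosidase I gene MOGS. The log2 fold changes of the 48 ran from -0.78 (MGAT2) to 0.74 (B4GALT1), with a median of -0.01, against a median of 0.00255 over all tested genes; 24 lay below 0 and 24 above. In 6 of the 48 genes all siC1QBP libraries were above all siNC libraries, in 7 they were all below, and in 35 the groups overlapped. Over all tested genes the first pattern held for 16.0% and the second for 16.6%.

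The changes were small in most of these genes. The log2 fold change was within 0.1 of 0 in 26 genes and within 0.25 of 0 in 43, and in 29 genes the whole 95% interval (normal approximation) lay within 0.25 of 0. The 5 genes closest outside the call were ALG1 (edgeR adjusted p = 0.0702), ST3GAL1 (0.0709), MGAT4B (0.0852), MGAT5 (0.0954) and B4GALT2 (0.111). The 2 called genes closest to the threshold were MOGS (edgeR adjusted p = 0.035) and DAD1 (0.027). The counts of calls moved with single libraries, here and over all tested genes. Without siNC replicate 2, 0 of the 48 genes were called lower and 3 higher, and over all tested genes the shares were 3.64% and 3.29%. Without siNC replicate 3 the counts were 2 lower and 3 higher (3.87% and 3.5% of all tested genes). Without siC1QBP replicate 1 they were 8 lower and 4 higher (9.2% and 6.99% of all tested genes).

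**Figure D1:**
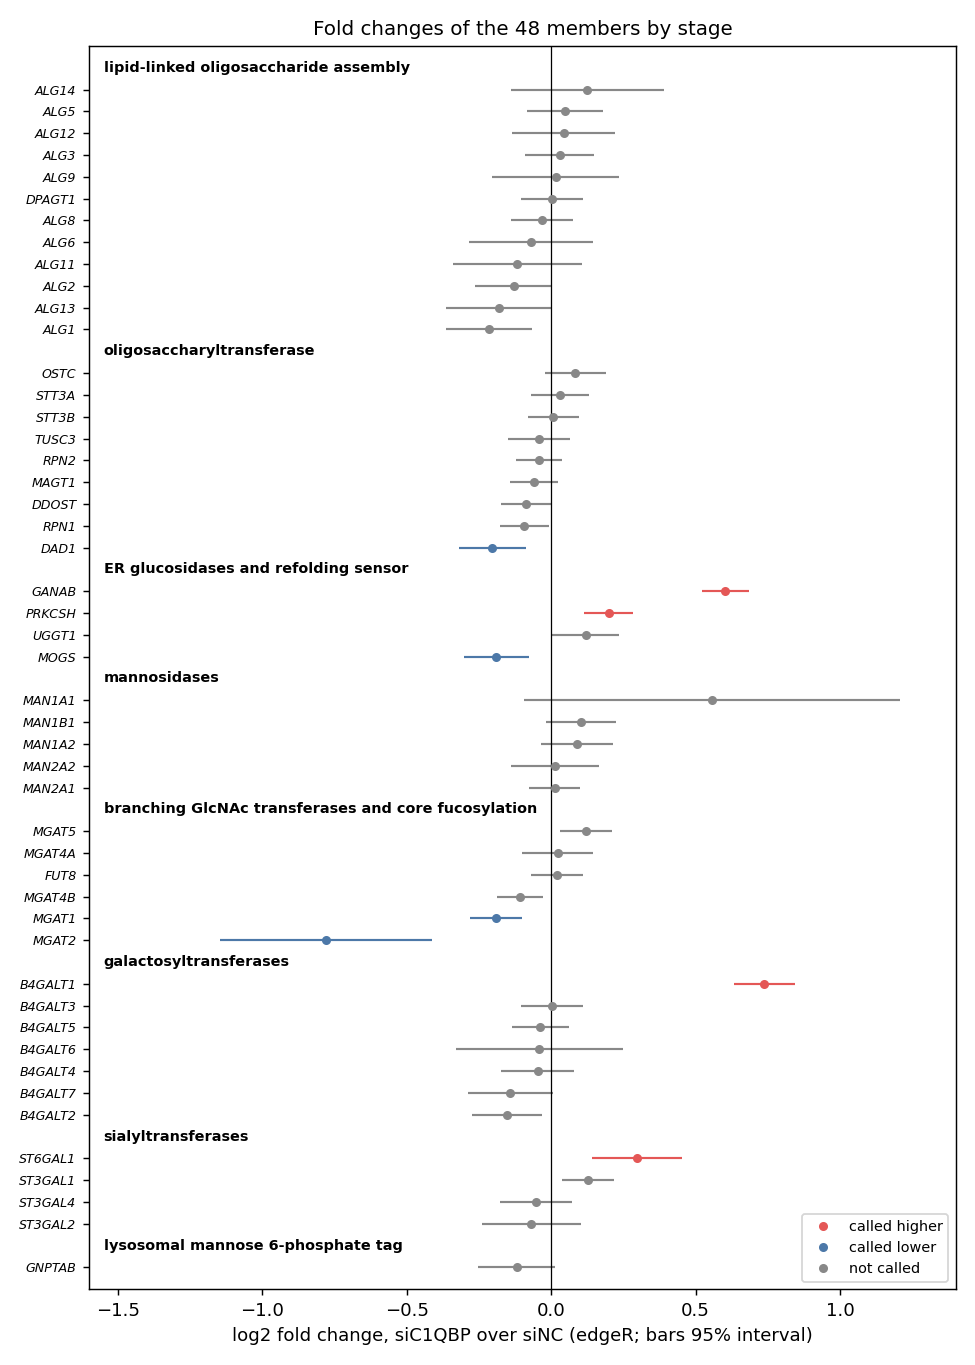
Log2 fold change (siC1QBP over siNC; points) with its 95% interval (bars) for each of the 48 genes, grouped by stage and coloured by call. B4GALT1 (0.74) and GANAB (0.60) lie farthest to the right and MGAT2 (-0.78) farthest to the left; MAN1A1 has the widest interval.

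The first stage, assembly of the lipid-linked oligosaccharide, had no call among 12 genes, and their median log2 fold change was -0.01 with a range from -0.21 to 0.12. Per length, ALG3, which adds the first mannose on the luminal side, had the highest level of this stage, followed by ALG8, which adds the second glucose. Levels per length are TPM (counts divided by the length of the gene's exons and scaled to 1 fixed total in every library), and ALG3 stood at 93.7 ± 2.61 TPM in siNC and 97.4 ± 8.42 TPM in siC1QBP (SD, n = 3 each).

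ALG3 counts were 86.6, 93.4 and 90.7 CPM in siNC replicates 1 to 3 and 101, 89.95 and 85.5 CPM in siC1QBP replicates 1 to 3, so siC1QBP held both the highest and the lowest library (log2 fold change 0.03, 95% interval -0.09 to 0.15). ALG8 was at 78.1, 74.9 and 80.6 CPM in siNC and 79.9, 74.8 and 73.8 CPM in siC1QBP (log2 fold change -0.03, 95% interval -0.14 to 0.07). Both genes overlapped between the groups. DPAGT1, the tunicamycin-sensitive enzyme that opens the pathway by placing GlcNAc-phosphate on dolichol, had a log2 fold change of 0.00311 (SE 0.05). In DPAGT1 21.3% of the exon bases overlap C2CD2L on the other strand. ALG13 and ALG14, the partners that add the second GlcNAc, had -0.18 (SE 0.09) and 0.12 (SE 0.13).

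The cytosolic mannosyltransferases ALG1, ALG2 and ALG11 had log2 fold changes of -0.21, -0.13 and -0.12. ALG1, which adds the first mannose, was the 1 gene of this stage whose groups did not overlap. Its libraries read 27.9, 25.4 and 27.7 CPM in siNC against 23.7, 24.0 and 22.2 CPM in siC1QBP, and it was not called (edgeR adjusted p = 0.0702). In ALG1 22.2% of the exon bases overlap genes of the same strand and 21.9% genes of the other strand. The largest partner of ALG1, NAGPA-AS1 on the same strand, had 0.5 counts on average against 465.7 for ALG1. In ALG11 39.7% of the exon bases are shared with UTP14C on the same strand (99.3 counts on average against 184.8 for ALG11). Reads on shared bases may have been assigned to either gene. The luminal mannosyltransferases ALG9 and ALG12 had log2 fold changes of 0.02 and 0.04. The glucose-adding enzymes ALG5, which makes the dolichol-linked glucose donor, and ALG6, which adds the first glucose, had 0.05 and -0.07.

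The oligosaccharyltransferase complex transfers the finished oligosaccharide to asparagine. Of its 9 listed subunits DAD1 was called lower, none was called higher, and the median log2 fold change was -0.04. The catalytic subunits STT3A, which acts as proteins enter the ER, and STT3B, which acts after translation, had log2 fold changes of 0.03 (95% interval -0.07 to 0.13) and 0.01 (95% interval -0.08 to 0.10). The ratio of STT3A to STT3B per length was 0.631 ± 0.00938 in siNC and 0.641 ± 0.0442 in siC1QBP (SD, n = 3 each), with overlapping libraries. MAGT1 and TUSC3, the alternative oxidoreductase subunits of the STT3B complex, had log2 fold changes of -0.06 and -0.04, and their ratio per length was 2.10 ± 0.0957 in siNC and 2.07 ± 0.0465 in siC1QBP. The STT3A-specific subunit OSTC had 0.08 (95% interval -0.02 to 0.19).

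DAD1 (ENSG00000129562; chromosome 14, 22564905 to 22589269, minus strand) encodes a small membrane subunit that holds the complex together. It was at 80.8, 92.0 and 85.5 CPM in siNC and at 71.6, 74.5 and 78.2 CPM in siC1QBP. The highest siC1QBP library lay just under the lowest siNC library. DAD1 fell by 0.20 on the log2 scale, with an SE of 0.06 and an adjusted p of 0.027 in edgeR, which left 86.8% of the siNC level. It was no longer called without siNC replicate 2 (edgeR adjusted p = 0.164), without siNC replicate 3 (0.0833) and without siC1QBP replicate 2 (0.0698), and over the 18 alternatives the adjusted p ran from 0.0018 to 0.164. With 808 exon bases DAD1 was the shortest of the genes called here.

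RPN1, RPN2 and DDOST are the large scaffold subunits. Their log2 fold changes were -0.09, -0.04 and -0.09, and none was called on all 6 libraries. RPN1 read 409, 424 and 430 CPM in siNC and 413, 385 and 386 CPM in siC1QBP. DDOST read 312, 329 and 327 CPM in siNC and 316, 304 and 290 CPM in siC1QBP. In both genes the siC1QBP replicate 1 overlapped the siNC range while the other two did not. Without siC1QBP replicate 1 both were called lower, RPN1 at -0.13 (edgeR adjusted p = 0.0109) and DDOST at -0.12 (edgeR adjusted p = 0.0285).

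The ER glucosidases follow the transfer. Glucosidase I (MOGS) removes the outermost glucose; glucosidase II, made of the catalytic subunit GANAB and the regulatory subunit PRKCSH, removes the inner ones and so controls binding to the lectin chaperones; UGGT1 adds a glucose back to misfolded proteins. Of these 4 genes 2 were called higher and 1 lower. Their summed level ran from 1116 to 1147 CPM in the siNC libraries and from 1465 to 1548 CPM in the siC1QBP libraries.

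GANAB (ENSG00000089597; chromosome 11, 62624826 to 62646726, minus strand) read 647, 637 and 631 CPM in siNC and 1017, 936 and 953 CPM in siC1QBP. Every siC1QBP library was far above every siNC library, and the spread within each group was small beside the gap. The mean went from 638 ± 7.73 to 969 ± 42.9 CPM (SD, n = 3 each). GANAB rose by 0.60 on the log2 scale, with an SE of 0.04 and an adjusted p of 1.22e-07 in edgeR, to 152% of the siNC level, and kept its call in all 18 alternatives with values from 0.56 to 0.63. Per length it moved from 456 ± 10.1 to 706 ± 32.2 TPM. In siC1QBP this was the highest level per length among the 48 genes. The DNA just before the first annotated base of GANAB is shown because it is the most abundant gene that rose. It is chr11:62646727-62646847 of GRCh38.p14, minus strand, from the RefSeq promoter window, read 5′ to 3′ towards the gene, with capitals on a CCAAT box and on 2 GC boxes (GGGCGG, here on the opposite strand as CCGCCC).
GANAB: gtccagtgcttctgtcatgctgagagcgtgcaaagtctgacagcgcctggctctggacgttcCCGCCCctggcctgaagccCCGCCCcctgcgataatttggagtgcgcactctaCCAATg

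PRKCSH (ENSG00000130175; chromosome 19, 11435288 to 11450968, plus strand), the partner of GANAB, also rose, but less. It read 248, 238 and 245 CPM in siNC and 268, 285 and 286 CPM in siC1QBP, with no overlap. PRKCSH rose by 0.20 on the log2 scale, with an SE of 0.04 and an adjusted p of 0.0053 in edgeR. It was no longer called without siNC replicate 2 (edgeR adjusted p = 0.0533), and over the 18 alternatives the adjusted p ran from 4.06e-07 to 0.0533. The ratio of GANAB to PRKCSH per length was 2.68, 2.74 and 2.64 in siNC and 3.90, 3.37 and 3.43 in siC1QBP. Both subunits rose, and the catalytic subunit gained on the regulatory one in each siC1QBP library.

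MOGS (ENSG00000115275; chromosome 2, 74461057 to 74465410, minus strand), which acts one step before GANAB, moved the other way. It read 80.7, 82.5 and 81.3 CPM in siNC and 65.7, 75.1 and 73.6 CPM in siC1QBP, with no overlap and with siC1QBP replicate 1 the lowest. MOGS fell by 0.19 on the log2 scale, with an SE of 0.06 and an adjusted p of 0.035 in edgeR. This was the least stable of the 8 calls. The gene was not called without siNC replicate 1 (edgeR adjusted p = 0.0581), siNC replicate 2 (0.124), siNC replicate 3 (0.105), siC1QBP replicate 1 (0.0753) or siC1QBP replicate 3 (0.0505), and over the 18 alternatives the adjusted p ran from 0.0098 to 0.124. UGGT1 read 172, 161 and 158 CPM in siNC and 197, 168 and 169 CPM in siC1QBP. These groups overlapped, and the log2 fold change of 0.12 was not called (edgeR adjusted p = 0.191). UGGT1 was called higher with the replicate block (edgeR adjusted p = 0.0471), and with the length trend removed it was not called (0.551).

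**Figure D2:**
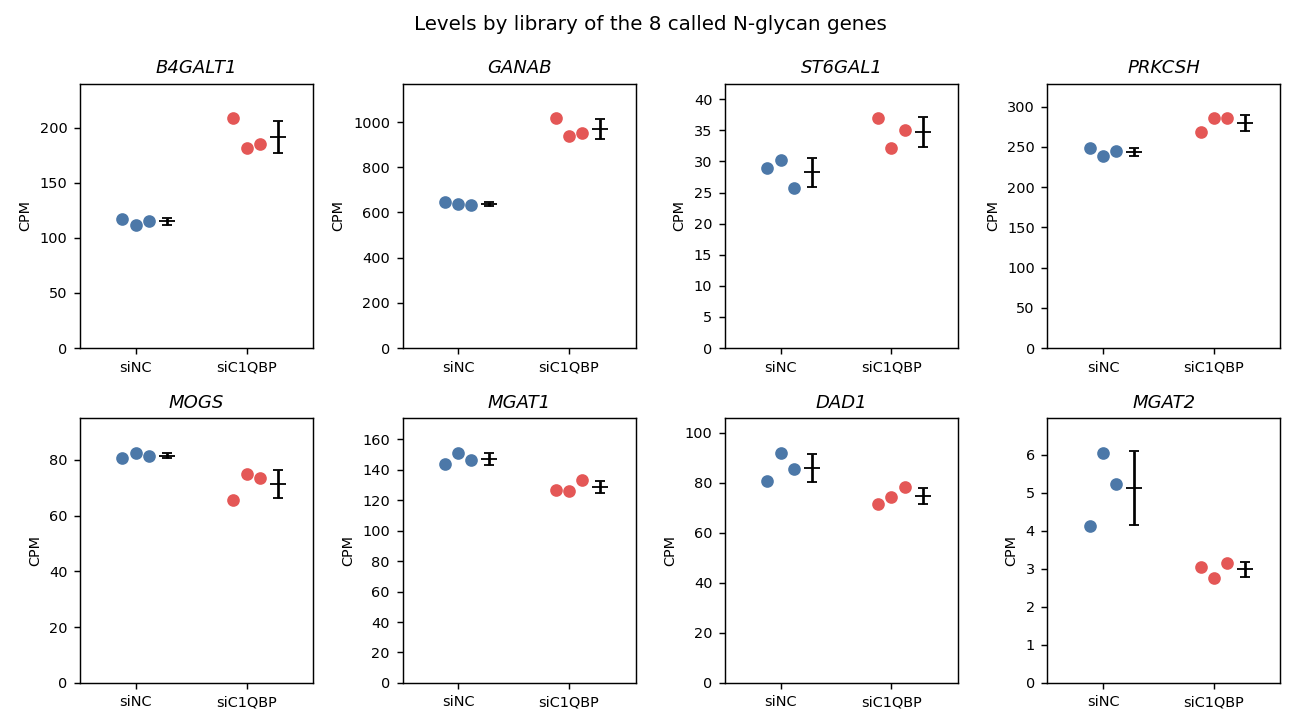
Level in each library (CPM on TMM-scaled library size, axes from 0) of the 8 called genes, with points for libraries and black bars for the mean ± SD of 3 libraries. GANAB and B4GALT1 show the widest gaps between the groups, and MGAT2 has the lowest level, at 2.77 to 6.05 CPM.

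The mannosidases trim the glycan before antennae can be added. None of the 5 was called on all libraries, all 5 log2 fold changes lay above 0, and all 5 overlapped between the groups. These are long genes, with a median of 9667 exon bases. With each library's trend with length removed, MAN2A1 was at -0.06 and MAN2A2 at -0.05, while MAN1B1, MAN1A2 and MAN1A1 stayed above 0. MAN2A1, the Golgi mannosidase that acts after MGAT1, had the highest level per length of this stage, at 47.8 ± 1.88 TPM in siNC and 49.1 ± 1.42 TPM in siC1QBP (SD, n = 3 each). It read 162, 156 and 153 CPM in siNC and 158, 154 and 162 CPM in siC1QBP, a log2 fold change of 0.01 (95% interval -0.08 to 0.10). MAN1B1, an ER and Golgi mannosidase with a part in glycoprotein quality control, read 76.0, 76.1 and 70.1 CPM in siNC and 73.6, 86.5 and 78.8 CPM in siC1QBP (log2 fold change 0.10, 95% interval -0.02 to 0.23). Without both replicates 1 MAN1B1 was called higher, at 0.17 (edgeR adjusted p = 0.0228), and with the length trend removed it was not called (0.6).

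The Golgi mannosidases MAN1A2 and MAN2A2 had log2 fold changes of 0.09 and 0.01. MAN1A1, a sister enzyme of MAN1A2, had low counts. It had 21, 16 and 19 counts in siNC and 25, 34 and 20 counts in siC1QBP, near 1 CPM. Its log2 fold change of 0.56 therefore carried a 95% interval from -0.09 to 1.21, and at this depth no difference was detectable. MAN1A2 was at 22.6 ± 1.1 TPM in siNC against 0.714 ± 0.138 TPM for MAN1A1.

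The branching enzymes add the GlcNAc residues from which antennae grow, and FUT8 adds the core fucose. Of these 6 genes MGAT1 and MGAT2 were called lower and none was called higher. MGAT1 (ENSG00000131446; chromosome 5, 180784782 to 180815652, minus strand) makes the first antenna, without which no hybrid or complex N-glycan forms. It read 144, 151 and 147 CPM in siNC and 127, 126 and 133 CPM in siC1QBP, and the groups were clearly apart. MGAT1 fell by 0.19 on the log2 scale, with an SE of 0.05 and an adjusted p of 0.0094 in edgeR. It was no longer called without siNC replicate 2 (edgeR adjusted p = 0.0692), and over the 18 alternatives the adjusted p ran from 0.00034 to 0.0692.

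MGAT2 (ENSG00000168282; chromosome 14, 49620795 to 49623481, plus strand), a gene of 1 exon, adds the second antenna and so turns hybrid into complex N-glycans. It had 75, 122 and 96 counts in siNC and 55, 48 and 60 counts in siC1QBP, which are 4.12, 6.05 and 5.23 CPM against 3.06, 2.77 and 3.15 CPM. All siC1QBP libraries were lower, and the siNC libraries were the more scattered. MGAT2 fell by 0.78 on the log2 scale (95% interval -1.15 to -0.41), with an SE of 0.19 and an adjusted p of 0.0101 in edgeR, leaving 58.3% of the siNC level. It was no longer called without siNC replicate 2 (log2 fold change -0.64, edgeR adjusted p = 0.0752), and over the 17 alternatives in which it was tested the adjusted p ran from 0.00092 to 0.0752. At 10 CPM or more it was not tested. MGAT1 stood at 6.8 ± 1.18 times the level of MGAT2 per length in siNC and at 10.01 ± 0.5 times in siC1QBP (SD, n = 3 each), without overlap.

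A limit applies to the MGAT2 counts. Of the called genes GANAB, MOGS, DAD1 and ST6GAL1 share no exon base with another annotated gene, and PRKCSH, B4GALT1 and MGAT1 share 1.24%, 1.47% and 3.41%. Of the 2687 exon bases of MGAT2, however, 91.9% lie opposite the annotated antisense gene AL139099.1 (chromosome 14, 49620815 to 49623480, minus strand), which had 0 counts in all 6 libraries, and 218 bases are free of it. The library kit marks the strand, but the sources used here do not give the strand setting of the counting, so reads set aside as ambiguous between the pair cannot be told apart from a low level of MGAT2. The DNA just before MGAT2 is shown for comparison with GANAB, since it is the gene with the largest fall. It is chr14:49620686-49620794 of GRCh38.p14, plus strand, from RefSeq, kept clear of the exon of the neighbouring gene RPL36AL and read towards the gene, with 1 GC box in capitals.
MGAT2: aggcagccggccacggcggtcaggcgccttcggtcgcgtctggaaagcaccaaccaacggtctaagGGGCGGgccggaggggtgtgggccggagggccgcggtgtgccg

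The other 4 genes of this stage were not called. MGAT4B read 278, 291 and 284 CPM in siNC and 262, 264 and 264 CPM in siC1QBP, without overlap, but its log2 fold change of -0.11 was not called (edgeR adjusted p = 0.0852). MGAT4B was called lower without siC1QBP replicate 1 (edgeR adjusted p = 0.0473), without both replicates 1 (0.0034) and with the length trend removed (0.0448). Its sister MGAT4A had 0.02 (95% interval -0.10 to 0.15). MGAT5, whose branch is extended with repeated lactosamine units and is often raised in carcinomas, read 126, 132 and 127 CPM in siNC and 143, 141 and 134 CPM in siC1QBP. All siC1QBP libraries were higher, and the log2 fold change of 0.12 was not called (edgeR adjusted p = 0.0954). MGAT5 was called higher with library size only (edgeR adjusted p = 0.0398), with a filter of 10 CPM (0.0334) and with the replicate block (0.0455). With the length trend removed MGAT5 was at 0.07 and was not called (edgeR adjusted p = 0.308). FUT8 read 202, 195 and 185 CPM in siNC and 202, 192 and 196 CPM in siC1QBP, a log2 fold change of 0.02 (95% interval -0.07 to 0.11), and 12.3% of its exon bases overlap genes of the other strand.

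Galactose is added by the B4GALT family. Of its 7 members B4GALT1, the main N-glycan galactosyltransferase and, with lactalbumin, the lactose synthase of milk, was called higher, and the other 6 were not called. B4GALT1 (ENSG00000086062; chromosome 9, 33104082 to 33167356, minus strand) read 117, 111 and 116 CPM in siNC and 209, 181 and 185 CPM in siC1QBP. The groups were far apart, with siC1QBP replicate 1 the highest. B4GALT1 rose by 0.74 on the log2 scale, with an SE of 0.05 and an adjusted p of 2.77e-07 in edgeR, to 167% of the siNC level, which was the largest rise of the 48 genes. It kept its call in all 18 alternatives, with values from 0.67 to 0.78.

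The DNA just before B4GALT1 is shown as that of the gene with the largest rise. It is chr9:33167357-33167506 of GRCh38.p14, minus strand, from RefSeq, read towards the gene. Its G and C content is 84.7%, against 61.2% in the GANAB stretch and 74.3% in the MGAT2 stretch, and the capitals mark 5 GC boxes.
B4GALT1: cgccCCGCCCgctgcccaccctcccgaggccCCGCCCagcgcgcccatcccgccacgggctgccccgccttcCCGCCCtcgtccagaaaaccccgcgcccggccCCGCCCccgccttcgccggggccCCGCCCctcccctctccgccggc

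With this rise B4GALT1 took a larger share of its family. Per length it made up 26.2%, 24.0% and 25.3% of the summed B4GALT level in siNC and 38.9%, 36.0% and 36.2% in siC1QBP. The summed family level ran from 420 to 432 CPM in siNC and from 475 to 507 CPM in siC1QBP. B4GALT2, a close relative with the same reaction, read 67.8, 78.4 and 73.9 CPM in siNC and 69.8, 64.7 and 63.5 CPM in siC1QBP. It overlapped between the groups and was not called on all libraries (log2 fold change -0.15, edgeR adjusted p = 0.111), but was called lower without siNC replicate 1 (-0.21, edgeR adjusted p = 0.0381) and without siC1QBP replicate 1 (-0.20, edgeR adjusted p = 0.0267).

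B4GALT3 and B4GALT4 had log2 fold changes of 0.00293 and -0.05. In B4GALT3 28.7% of the exon bases overlap PPOX on the other strand. B4GALT5 and B4GALT6, better known for making the glycolipid lactosylceramide, had -0.04 each. B4GALT7, which builds the linker of proteoglycans, had -0.14 (95% interval -0.29 to 0.01). Per length B4GALT1 was first of the family in both groups, at 84.3 ± 3.03 TPM in siNC and 143 ± 11.3 TPM in siC1QBP, and B4GALT6 was last, at 6.46 ± 1.21 and 6.38 ± 1.03 TPM (SD, n = 3 each). B4GALT5 and B4GALT2, at 72.7 ± 1.38 and 69.9 ± 4.33 TPM in siNC, came next and did not differ beyond their spread.

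The sialyltransferases cap galactose with sialic acid. Of 4 genes ST6GAL1 was called higher and none was called lower. ST6GAL1 (ENSG00000073849; chromosome 3, 186930485 to 187078553, plus strand), the main enzyme of its linkage on N-glycans, read 28.9, 30.2 and 25.7 CPM in siNC and 37.0, 32.1 and 35.0 CPM in siC1QBP. The lowest siC1QBP library was just above the highest siNC library. ST6GAL1 rose by 0.30 on the log2 scale, with an SE of 0.08 and an adjusted p of 0.0185 in edgeR. It was no longer called without siNC replicate 3 (edgeR adjusted p = 0.117) and without siC1QBP replicate 3 (0.0503), and over the 18 alternatives the adjusted p ran from 0.0068 to 0.117. Its share of the summed level of the 4 genes per length was 10.7% ± 0.861 in siNC and 12.5% ± 0.47 in siC1QBP (SD, n = 3 each).

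ST3GAL1, which acts mainly on O-glycans, was the most abundant of the 4 per length, at 45.5 ± 1.22 TPM in siNC. It read 114, 111 and 111 CPM in siNC and 125, 121 and 121 CPM in siC1QBP, with no overlap, and was not called (log2 fold change 0.13, edgeR adjusted p = 0.0709). ST3GAL1 was called higher when scaled by library size only (edgeR adjusted p = 0.0305) and with a filter of 10 CPM (0.0228). The same held with protein-coding genes only (edgeR adjusted p = 0.0428), with the replicate block (0.0338) and without both replicates 1 (0.0332). With the length trend removed ST3GAL1 was at 0.08 and was not called (edgeR adjusted p = 0.231). ST3GAL2 and ST3GAL4 had log2 fold changes of -0.07 and -0.05 and overlapped. GNPTAB, which starts the mannose 6-phosphate tag that routes enzymes to lysosomes, read 45.7, 44.3 and 44.2 CPM in siNC and 45.0, 40.6 and 37.9 CPM in siC1QBP. The groups overlapped through siC1QBP replicate 1, and the log2 fold change was -0.12 (edgeR adjusted p = 0.269). Without that library GNPTAB was called lower, at -0.19 (edgeR adjusted p = 0.0477).

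**Figure D3:**
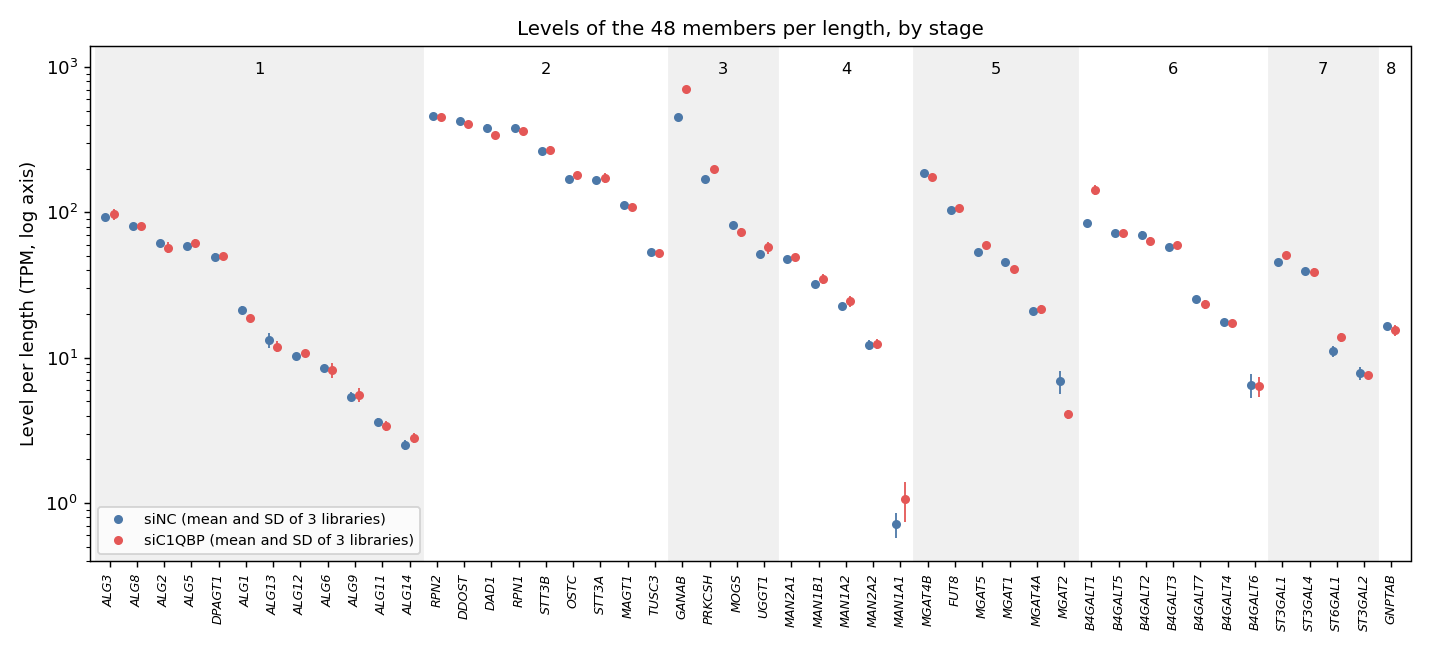
Level per length (TPM, log axis; mean ± SD of 3 libraries) of the 48 genes in siNC and siC1QBP, ordered within stages 1 to 8: lipid-linked oligosaccharide assembly, oligosaccharyltransferase, ER glucosidases and refolding sensor, mannosidases, branching and core fucosylation, galactosyltransferases, sialyltransferases, and the lysosomal tag. The oligosaccharyltransferase subunits and GANAB form the upper end and MAN1A1 (0.714 TPM in siNC) the lower end.

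Levels per length ranged widely over the 48 genes. In siNC the oligosaccharyltransferase subunits RPN2 (462 ± 11.5 TPM) and DDOST (426 ± 7.54 TPM) stood with GANAB (456 ± 10.1 TPM) at the top (SD, n = 3 each). RPN2 and GANAB did not differ beyond their spread there, whereas in siC1QBP RPN2 was at 456 ± 8.75 TPM and GANAB at 706 ± 32.2 TPM. ALG14 and ALG11 were the lowest of the assembly enzymes, at 2.53 ± 0.195 and 3.62 ± 0.218 TPM in siNC. The 48 genes together took 0.554% ± 0.00286 of all counts in siNC and 0.599% ± 0.0108 in siC1QBP. GANAB and B4GALT1 made up 0.0745% ± 0.00126 in siNC and 0.117% ± 0.00488 in siC1QBP, and the other 46 genes 0.48% ± 0.00226 and 0.483% ± 0.00628, so the 2 genes carried the increase of the sum.

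Gene length moved with the fold changes across the whole table. Of the 3107 shortest tested genes (median 1429 exon bases) 354 were called lower and 90 higher, and of the 3106 longest (median 10215.5 bases) 99 lower and 396 higher. Over the 48 genes Spearman's rho between exon length and log2 fold change was 0.25, a description over genes of the same 6 libraries. GANAB (5030 bases) and B4GALT1 (4901 bases) were near the median length of the 48, 5235 bases. With each library's trend with length removed, GANAB and B4GALT1 stayed at 0.60 and 0.74, and MGAT2 was at -0.73. Of the 48 genes 4 were then called higher and 5 lower, MGAT4B being added, against 5.87% and 8.93% of all tested genes.

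**Figure D4:**
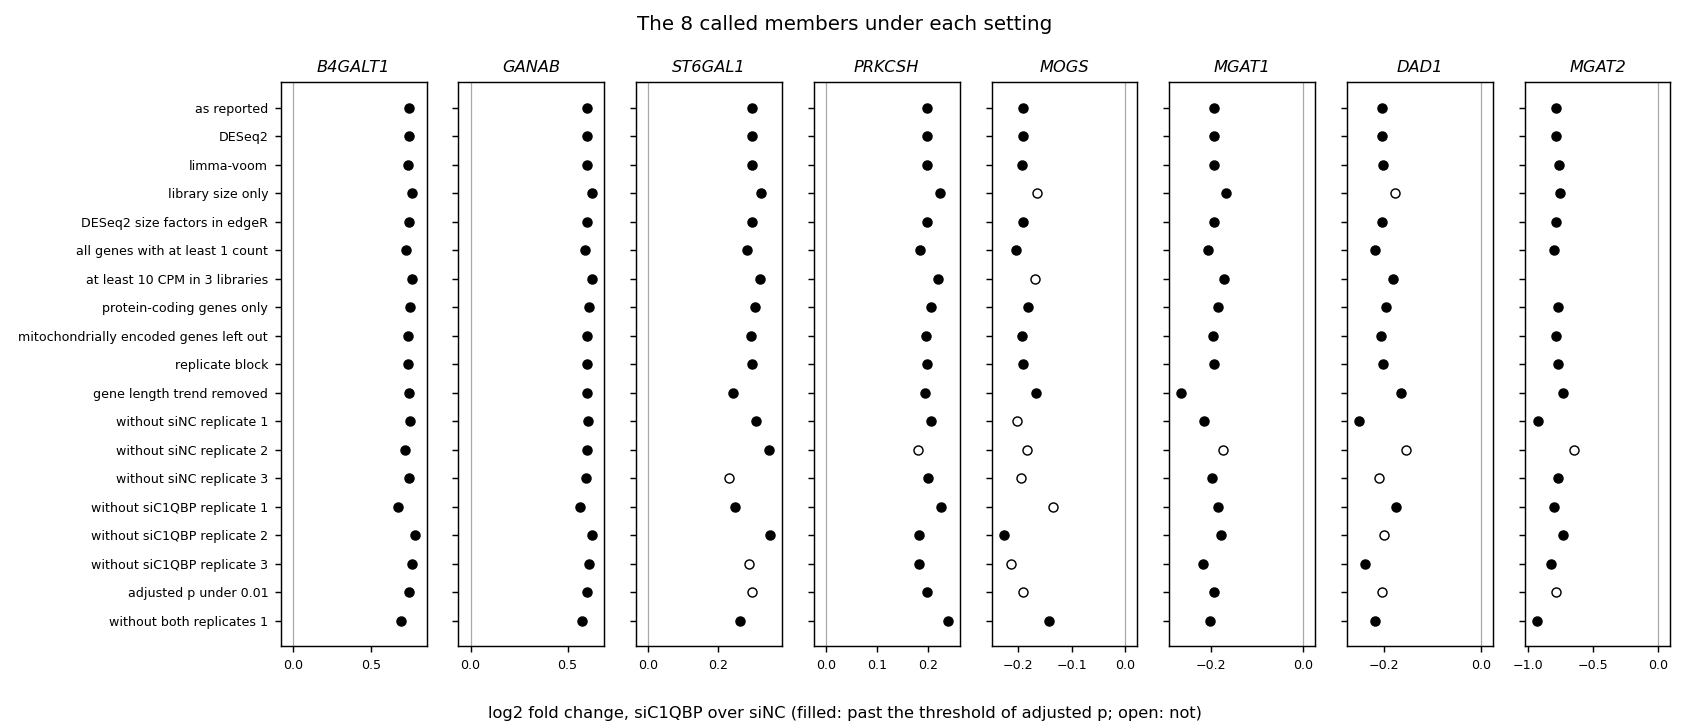
Log2 fold change (siC1QBP over siNC, 1 panel per gene with its own axis) of the 8 called genes as reported and under each alternative; filled points pass the threshold of adjusted p and open points do not. GANAB and B4GALT1 are filled throughout, and most open points belong to MOGS and DAD1 and to the settings that leave out siNC replicate 2 or siNC replicate 3.

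Promoter windows of RefSeq (GRCh38.p14; 250 bases before to 50 bases after the start) were matched for 39 of the 48 genes, among them all 4 called higher and 3 of the 4 called lower. Motifs were searched on both strands, and a match is only a run of letters. The GC box GGGCGG was found in 29 of 39 windows (74.4%), against 65% of the windows of tested genes and 45% of all 35116 windows. The CCAAT box was found in 16 (41%), against 34.3% and 34.6%. Of the called genes GANAB, DAD1, MGAT1 and MGAT2 held it, in MGAT2 in a part of the window outside the printed stretch. TGACG, the core of the cyclic AMP response element, was found in 11 (28.2%), against 31.2% and 24.6%, and the E-box CACGTG in 4 (10.3%), against 9.21% and 7.26%. The full ER stress response element was found in the window of ALG12 alone, against 0.116% of the windows of tested genes. ALG12 had a log2 fold change of 0.04, and 42.1% of its exon bases overlap genes of the other strand.

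The list of 48 leaves out other genes of the pathway, of which 67 were read from the same fit: dolichol and donor synthesis, small oligosaccharyltransferase subunits, lectin chaperones, glycoprotein degradation, nucleotide sugar synthesis and transport, and further Golgi enzymes. Of these 62 were tested, 9 were called lower and 3 higher, where 7.84% and 6.47% of all tested genes were, and the median log2 fold change was -0.03. MAN1C1, MGAT3, MGAT4C and B3GNT8 had at most 9 counts in a library and were not tested, and ST6GAL2 had 0 counts in every library.

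On the lipid side, DOLK, the kinase that makes dolichol phosphate, read 27.4, 26.5 and 26.8 CPM in siNC and 19.95, 22.4 and 20.4 CPM in siC1QBP. It fell by 0.36 on the log2 scale, with an SE of 0.08 and an adjusted p of 0.0045 in edgeR, with a wide gap between the groups and with the other 11 genes of its group not called. TMEM258, a small oligosaccharyltransferase subunit, fell by 0.43 (SE 0.10; edgeR adjusted p = 0.0087), from 83.6, 93.8 and 92.7 CPM in siNC to 51.2, 75.35 and 73.9 CPM in siC1QBP, with siC1QBP replicate 1 far below the others. It was no longer called without siNC replicate 2 (edgeR adjusted p = 0.0574) and with DESeq2 (adjusted p = 0.0794). OST4, another small subunit, read 67.4, 63.3 and 69.2 CPM in siNC and 44.0, 57.9 and 63.0 CPM in siC1QBP, and was not called (log2 fold change -0.28, edgeR adjusted p = 0.056). OST4 was called lower with DESeq2 (adjusted p = 0.039), with a filter of 1 count (edgeR adjusted p = 0.00024) and without siC1QBP replicate 3 (0.0097). Its lowest library was siC1QBP replicate 1, and without both replicates 1 OST4 was at -0.13 and not called (edgeR adjusted p = 0.118).

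Around the glucosidases, the lectin chaperone CALR, which binds the monoglucosylated glycan that glucosidase II makes and removes, fell by 0.18 on the log2 scale, with an SE of 0.04 and an adjusted p of 0.0045 in edgeR. It read 956, 995 and 1002 CPM in siNC and 873, 872 and 863 CPM in siC1QBP, without overlap. Its membrane-bound relative CANX had 0.02 (95% interval -0.07 to 0.11), and the partner disulfide isomerase PDIA3 had 0.09 (95% interval 0.01 to 0.18; edgeR adjusted p = 0.182). SELENOF, a selenoprotein that binds UGGT1, fell by 0.18 (SE 0.05; edgeR adjusted p = 0.0229) and was no longer called without siNC replicate 2 (0.0958) or siNC replicate 3 (0.0996), with library size only (0.0531) or with the length trend removed (0.0649). LMAN2, a cargo lectin, was also called lower, with groups that overlapped, and was not called with the length trend removed (edgeR adjusted p = 0.114).

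In nucleotide sugar supply, GFPT1, the rate-limiting enzyme of the hexosamine pathway to UDP-GlcNAc, rose by 0.34 on the log2 scale, with an SE of 0.06 and an adjusted p of 0.00081 in edgeR. It read 90.5, 95.3 and 88.7 CPM in siNC and 124, 117 and 107 CPM in siC1QBP, all higher. GNPNAT1, the next enzyme of the same route, fell by 0.18 (SE 0.05; edgeR adjusted p = 0.021) and was no longer called without siNC replicate 2 (0.0985), siC1QBP replicate 2 (0.0913) or siC1QBP replicate 3 (0.0706). SLC35D2, a Golgi nucleotide sugar transporter, fell by 0.41 (SE 0.11; edgeR adjusted p = 0.0196) and was no longer called without siNC replicate 2 (0.0934), siNC replicate 3 (0.0839) or siC1QBP replicate 1 (0.0526). In SLC35D2 46.8% of the exon bases overlap AL160269.1 on the same strand, which had 0.2 counts on average against 259.0 for SLC35D2. Overlap with genes of the other strand covered 35.6% of the exon bases in GNPNAT1, 25.2% in MAN2C1, 21% in OST4 and 18.4% in TMEM258. MAN2C1, a cytosolic mannosidase of glycan breakdown, rose by 0.31 (SE 0.08; edgeR adjusted p = 0.0123) and was no longer called without siNC replicate 2 (0.0686), siNC replicate 3 (0.0643) or siC1QBP replicate 2 (0.0747). GMDS, an enzyme of GDP-fucose synthesis, was also called lower, and the sialyltransferase ST3GAL3 higher. These calls and that of LMAN2 were lost in most settings that left out a library. Without siNC replicate 2 the edgeR adjusted p was 0.118 for GMDS, 0.129 for ST3GAL3 and 0.204 for LMAN2, and without siNC replicate 3 it was 0.0846, 0.13 and 0.205. Leaving out siC1QBP replicate 2 or siC1QBP replicate 3 also ended all 3 calls, and leaving out siNC replicate 1 ended those of GMDS and ST3GAL3. With DESeq2 the adjusted p was 0.0648 for GMDS and 0.0723 for ST3GAL3. Scaled by library size only, the edgeR adjusted p was 0.0522 for GMDS and 0.0774 for LMAN2, and with the length trend removed it was 0.0796 for ST3GAL3.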

How the data were processed

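RNA-seq libraries were made with a strand-marking kit, per the labels' protocols. The authors deposited unnormalized counts of reads for each gene, with a gene length in bases in the same table. The build is hg38, per the submitters' processing notes. Which aligner and counter were used, and with which strand setting, is not given in the sources used here. The gene length equalled the union of GENCODE 29 exons in all 115 pathway genes checked. Counts were tested across all genes with edgeR 4.0.16 in R 4.3.3 (TMM, filterByExpr, quasi-likelihood test, treatment only, Benjamini-Hochberg adjustment over 15530 genes, threshold 0.05); SE is the absolute log2 fold change over the square root of F. DESeq2 1.42.0, limma-voom (limma 3.58.1), other scalings and filters, a replicate block, a length correction and each library left out were alternatives; leaving out both replicates 1 was added after seeing the data. The test was checked on simulated data. Python 3.11.15 was used for sequences and figures. The members and lists were chosen with earlier results of these data known. Per-library values are given for called genes, for the 2 members highest per length in stages without a call, and, chosen after their values were seen, for other members near the threshold or overlapping through 1 library. Of the other pathway genes, the 8 called with the smallest p have values; of the last 4 called, 3 are only named and 1 is not reported here, and OST4, CANX and PDIA3 were chosen after their values were seen.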

Additional observations from a re-analysis of the deposited data

How the results depend on the processing

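DESeq2, limma-voom and DESeq2 size factors in edgeR each gave 4 genes lower and 4 higher. A filter of 1 count and leaving out mitochondrially encoded genes gave the same counts (over these settings 4.77% to 8.15% and 3.08% to 6.46% of all tested genes). With library size only, 2 were lower and 6 higher (5.85% and 8.07% of all tested genes) and the median log2 fold change was 0.0108; with at least 10 CPM in 3 libraries, 2 were lower and 6 higher among 44 tested (10.1% and 10.8% of all), and the median was 0.0072. At an adjusted p under 0.01, 1 was lower and 3 higher (3.73% and 3.08%). With protein-coding genes only, 4 were lower and 5 higher (8.91% and 8.04% of all). Leaving out 1 library gave 0 to 8 lower and 3 to 4 higher (3.64% to 9.2% and 3.29% to 6.99% of all). The medians then ran from -0.0413 to -0.00027. Without both replicates 1, 8 were lower and 6 higher (12.1% and 8.73% of all) and the median was -0.043; GANAB was then at 0.57, B4GALT1 at 0.69 and MGAT2 at -0.93. The cause of these shifts was not tested. The replicate block gave 5 lower and 7 higher (11.3% and 8.59% of all). The deviations of same-numbered libraries correlated at 0.0433, 0.033 and -0.0094. The labels name no batch, and whether same-numbered libraries were handled together was not tested. DAD1 and MOGS also lost their calls with library size only (edgeR adjusted p = 0.0537 and 0.0758), and MOGS with the 10 CPM filter (0.0545). Depth limits MGAT2 (76.0 counts on average) and MAN1A1 (22.5).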
